A study of Homo sapiens with 18 samples.

Results

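The transcriptome of hTERT RPE-1 cells transfected with a hsa-miR-708-5p mimic was compared with that of cells given siNT, a non-targeting siRNA. The 6 libraries of this comparison were chosen by their labels from 18 in the series, as the 3 hsa-miR-708-5p and the 3 siNT libraries of the hTERT RPE-1 table. hTERT RPE-1 is a human retinal pigment epithelial line immortalised with telomerase, and each of its biological replicates, numbered 1 to 3, was collected 72 h after transfection with 30 nM of small RNA. PolyA+ RNAseq was conducted on these cells and on a further group given 30 nM hsa-miR-28-5p, and the same 3 treatments were applied to MCF10A, a near-normal breast epithelial line whose replicates are numbered 7 to 9. All groups received a transfected small RNA, so that transfection itself is shared by siNT and the mimics. Each condition rests on 1 line, so that the libraries describe these cultures and not a tissue.

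A microRNA guides an Argonaute protein to messenger RNAs, mostly through pairing between bases 2 to 8 of the microRNA, called the seed, and complementary letters in a 3′ UTR, and the paired transcript is then translated less and degraded faster. A mimic is a synthetic duplex that supplies 1 mature microRNA in large amounts, so that transcripts with seed matches and everything downstream of them can move together. Both mimics of the study, hsa-miR-28-5p included, belong to the MIR-28 family, and they were followed for their effect on ribosome biogenesis, the assembly of ribosomal subunits in the nucleolus. hsa-miR-708-5p is encoded within the TENM4 gene, which codes for a teneurin, a cell surface protein.

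The sequences that carry the seed comparison are printed 5′ to 3′ with the seed, or the letters that match it, in capitals. The mature hsa-miR-708-5p is given by RefSeq on GRCh38.p14 at chr11:79402077-79402099 on the minus strand, and hsa-miR-28-5p was taken from the study's own list of mimics. Their first 8 bases are identical and 16 positions counted from the 5′ end are equal, so both share the seed AGGAGCU. The sites below them lie in 3′ UTRs of GENCODE 44 on hg38, and were chosen because RPS28 fell furthest among ribosomal protein genes, CEMIP and IMPDH1 are among the 12 transcripts that fell most, and AGO1 is itself an Argonaute gene. Both RPS28 sites, at chr19:8322311-8322333 and chr19:8322346-8322368 on the plus strand, match 6 letters of the seed. The CEMIP sites at chr15:80950065-80950087 and chr15:80950743-80950765 (plus strand), the IMPDH1 site at chr7:128392889-128392911 (minus strand) and the AGO1 site at chr1:35923196-35923218 (plus strand) match 7 letters, and the AGO1 site also has an A opposite base 1, which makes it an 8mer.
hsa-miR-708-5p: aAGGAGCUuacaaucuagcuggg
hsa-miR-28-5p: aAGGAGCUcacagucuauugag
RPS28 site 1: tggtctgtcacagtctGCTCCTt
RPS28 site 2: cacacgtaactgagatGCTCCTt
CEMIP site 1: aagtccacagaagtgAGCTCCTg
CEMIP site 2: atagagagcccaaagAGCTCCTg
IMPDH1 site 1: cactacgggttctccAGCTCCTt
AGO1 site: gaaacttccctaaaaAGCTCCTA

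The values are estimated read counts per gene, scaled by the authors for library size, and are called normalised read counts here. Depth, taken from the smallest step between the low values of a library, was 23.8–40.4 M reads in siNT and 29.4–36.5 M reads with hsa-miR-708-5p, and 3 reads corresponded to values of 2.35–4.40 over the 9 libraries of the line. The 18 rRNA genes listed took 5.91–7.20% of siNT libraries, 4.23–5.79% of hsa-miR-708-5p libraries and 4.59–15.1% of hsa-miR-28-5p libraries, of which replicate 1 held 15.1% and stood apart. The line was checked against 16 markers of retinal pigment epithelium: KRT8, KRT18, MITF and OTX2 were present, whereas RPE65, TYR, TTR, DCT, STRA6 and SLC16A8, most of which mark the differentiated tissue, were not listed in the table. Of 12 immune markers CD68, PTPRC and CD4 were listed and CD68 alone passed the filter on low values, and of 11 mammary markers TP63, KRT7 and KRT15 were listed. The mimic itself is not measured by polyA+ libraries, and TENM4 transcripts were 2042, 1755 and 1765 in siNT and 3552, 3467 and 3244 with hsa-miR-708-5p, a rise of 0.89 on the log2 scale (SE 0.092, adjusted p = 1.61e-05).

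Almost as many genes rose as fell. Genes with a normalised read count of at least 10 in at least 3 libraries were tested with limma on log2(value + 1), and a gene is called where its Benjamini-Hochberg adjusted p was below 0.05. Of 14527 genes tested, 4486 (30.9%) were called higher with hsa-miR-708-5p than in siNT and 4538 (31.2%) were called lower, and the median log2 fold change over all genes was 0.0021. Changes of at least 2-fold were called for 1846 genes (12.7%) that rose and 1704 (11.7%) that fell. At least 16-fold changes were called for 65 genes upward and 35 downward. For 10051 genes (69.2%) the 3 hsa-miR-708-5p values lay all above or all below the 3 siNT values. Groups without overlap, as named below for single genes, are thus the more frequent case. The direction of small changes depends on the scaling, because the deposited values of the hsa-miR-708-5p libraries sum to 27.9–29.1 M and those of siNT to 34.8–37.1 M: with totals set equal, 71.8% of called genes were higher instead of 49.7%, and the median over all genes moved to 0.32. Since that shift is common to all genes, lists are described below by their called members and by their median beside the 0.0021 of all genes, and a list is named as scaling-dependent where its split turned. In bulk RNA, fewer cells of a type and less RNA per cell cannot be told apart.

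The genes that fell most came from several groups. CEMIP, a secreted hyaluronan-degrading protein described with the matrix genes, was followed by NACAD, a relative of the nascent polypeptide complex, which had 449, 584 and 430.0 in siNT and 1.57, 1.90 and 2.55 with hsa-miR-708-5p, all 3 of the latter at or under 3 reads, and was therefore at least 188-fold lower. LRRC32, EXTL1 and CRISPLD2 followed at −7.27, −5.51 and −5.49 on the log2 scale. ELN, which encodes elastin, went from 239, 312 and 69.0 to 3.14, 8.56 and 0.851 (−5.38), and PTGIS, the prostacyclin synthase, from 941, 1207 and 716 to 36.9, 39.0 and 13.6 (−5.06). In ELN 1 hsa-miR-708-5p library lay at or under 3 reads. The 12 genes named here were picked among those whose groups do not overlap. VSTM2L, ITIH3, TMEM130, the ligand WNT11 and IMPDH1 complete the 12, and the hsa-miR-708-5p libraries of ITIH3 also lay at or under 3 reads, at least 49.5-fold lower than siNT.

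**Figure D1:**
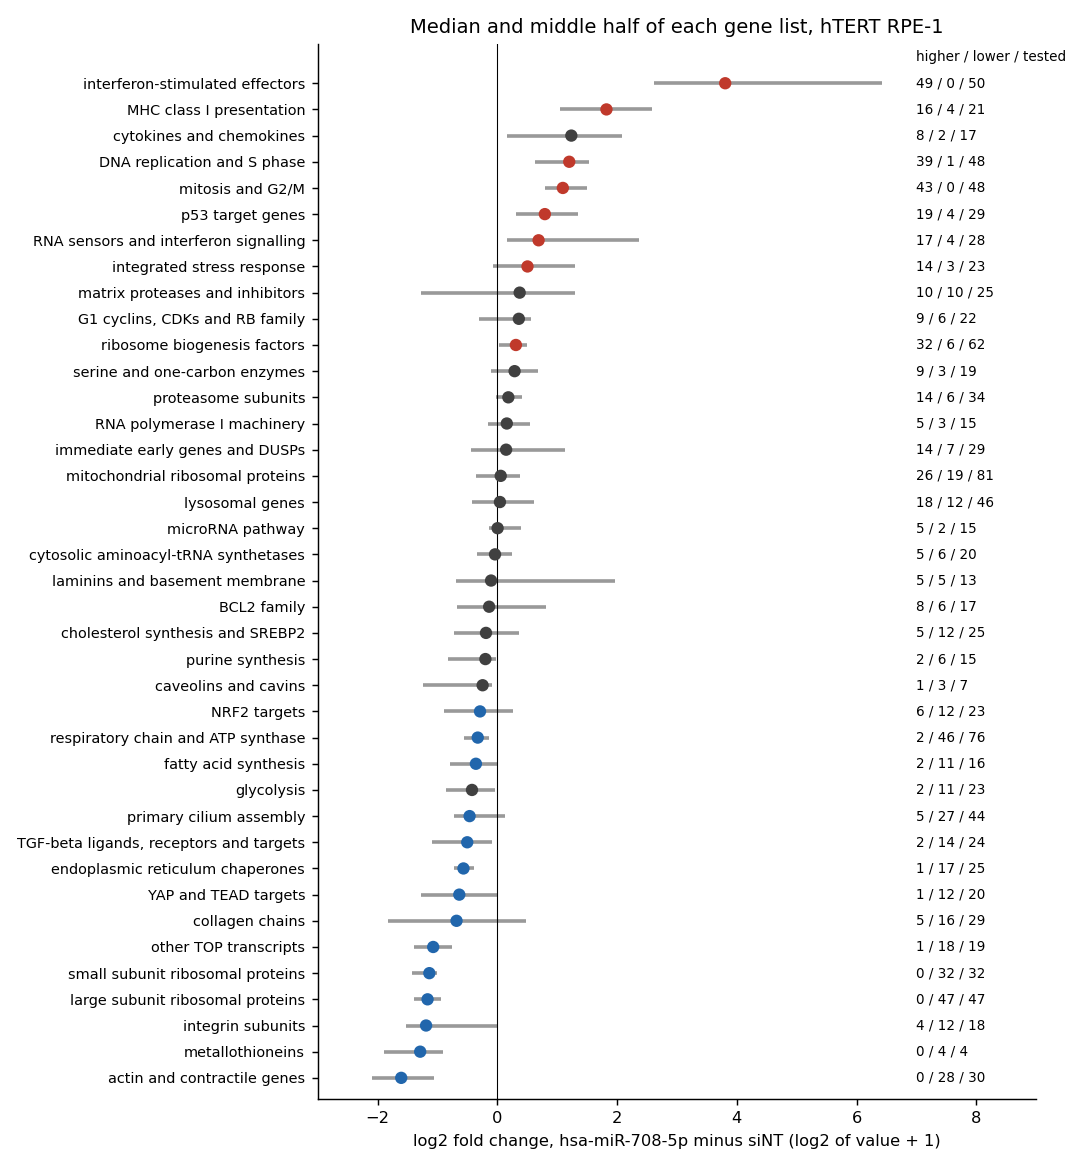
Median log2 fold change (points) and the range from the lower to the upper quartile (grey bars) of 39 gene lists in hTERT RPE-1, as hsa-miR-708-5p minus siNT on the log2(value + 1) scale. Red and blue points mark lists with over 50% of members called higher or lower, and the columns at the right give members called higher, called lower and tested, from interferon-stimulated effectors (49, 0 and 50) to actin and contractile genes (0, 28 and 30).

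Genes of the interferon response rose furthest. Interferons are secreted after cells sense foreign RNA, and act through the JAK–STAT pathway to induce antiviral effectors. Of 50 interferon-stimulated effectors tested, 49 were called higher and 0 lower, with a median log2 fold change of 3.81, and the exception was RNF213 (0.53, adjusted p = 0.087). OAS1, which makes the 2-5A messenger that activates RNase L, had normalised read counts of 10.4, 3.04 and 2.93 in siNT and 6158, 8480.3 and 8277 with hsa-miR-708-5p, and 2 siNT libraries lay at or under 3 reads. Since the filter asks for 10 in any 3 of the 9 libraries, OAS1 passed it through mimic libraries, where it is high. For such a member a call of lower was hardly possible, so that its direction adds little to the count. IFIT1, which binds viral RNA caps, went from 416, 444 and 685 to 59534, 73466 and 64198, a log2 fold change of 7.02 (SE 0.72, adjusted p = 1.6e-05). Both were picked among genes whose groups do not overlap. The 12 genes that rose most in the transcriptome were OAS1, OAS2, IFI27, CEACAM1, IFITM1, MX1, IFI6, BATF2, IFIT1, ISG20, IFIT3 and GBP4, with log2 fold changes from 10.39 down to 6.90 that for several of them rest on siNT libraries at or under 3 reads, and most of them are textbook interferon targets.

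Most sensors and signalling components that were called also rose. Of 28 tested, 17 rose and 4 fell, with a median of 0.69. The cytosolic RNA sensor IFIH1 (MDA5) went from 349, 348 and 408 to 12671, 17022 and 16367 (5.37 on the log2 scale), and DDX58 (RIG-I), TLR3 and DHX58 rose by 3.95, 3.49 and 3.05. STAT2, a transcription factor that interferon receptors activate, went from 3988, 3771 and 3560.0 to 13028, 17852 and 15667, a log2 fold change of 2.03 (SE 0.36, adjusted p = 0.0006), and IRF9, which binds DNA with it, rose by 2.48. The 4 that fell were JAK1, the kinase of the type I receptor (−1.31), the adaptors MAVS (−0.80) and TICAM1 (−0.51), and the receptor chain IFNAR1 (−0.31). Of the interferon genes themselves IFNE and IFNA1 passed the filter on low values, and neither was called (−0.20 and −0.60, adjusted p = 0.371 and 0.155). Interferon-stimulated effectors are also expressed by leukocytes, and the immune markers that passed the filter, which is CD68 alone, went from 317–452 in siNT to 4792–7226 with hsa-miR-708-5p, while the leukocyte-defining PTPRC and CD4 stayed under the filter. The part of immune cells in these results was not tested.

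Antigen presentation and cytokines followed in part. Among 21 genes of MHC class I presentation 16 rose and 4 fell (median 1.82). PSMB9, an immunoproteasome subunit, went from 133, 104 and 135 to 1083, 1449.6 and 1405, while the peptide trimmer ERAP2, the non-classical class I gene HLA-F and the transporter TAP2 rose by 3.24, 2.89 and 2.84. The genes that fell were TAPBP (−1.84), which bridges class I molecules to the transporter, and the general chaperones CALR, CANX and PDIA3 (−0.68, −0.45 and −0.42). HLA genes are close paralogs, so that their counts could have been shared out between them by the estimation step. Of 17 cytokines and chemokines 8 rose and 2 fell: IL1B, a secreted inflammatory cytokine, had 43.2, 36.5 and 60.2 in siNT and 641, 1231 and 412 with hsa-miR-708-5p, with no overlap between groups, and IL1A, CXCL2 and CXCL3 rose by 3.29, 3.62 and 3.32. CCL2, which attracts monocytes, went the other way, from 3184, 4145 and 3088 to 813, 1077 and 431 (−2.25, adjusted p = 0.000103), as did LIF (−0.77), and IL6 did not pass the test (0.16, adjusted p = 0.472).

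**Figure D2:**
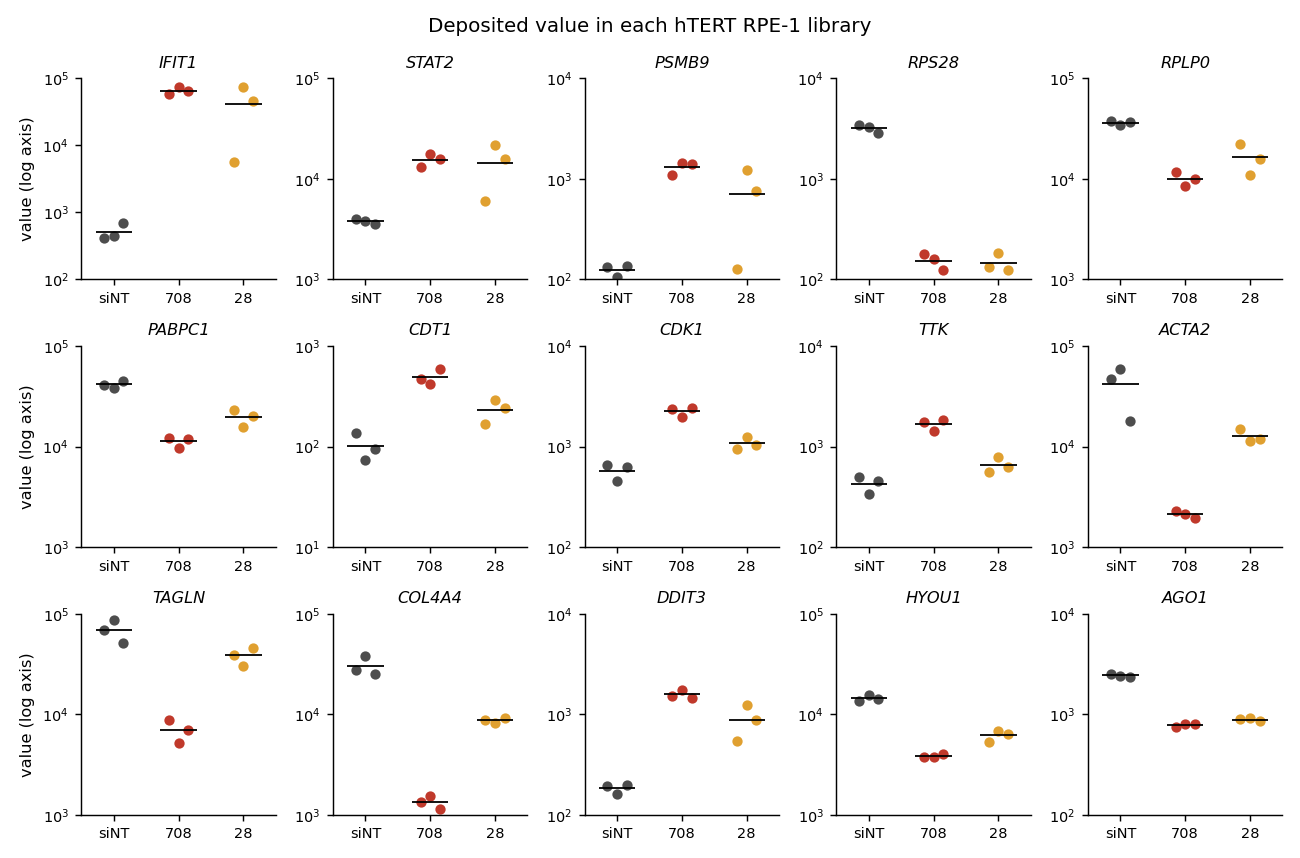
Normalised read count of 15 named genes in each of 9 hTERT RPE-1 libraries, on a log axis, for siNT (grey), hsa-miR-708-5p (red) and hsa-miR-28-5p (orange); points are single libraries and bars the mean of 3. The 3 hsa-miR-708-5p points lie apart from the 3 siNT points in each panel, as they do for 69.2% of all genes tested. For IFIT1 the lowest hsa-miR-28-5p point is replicate 1.

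Messenger RNAs of the translation machinery fell as a block. RPS28, a protein of the small ribosomal subunit, had normalised read counts of 3465, 3301 and 2892 in siNT and 177, 159.8 and 123 with hsa-miR-708-5p. All 3 hsa-miR-708-5p libraries lay at least 16-fold under every siNT library, and the log2 fold change was −4.40 (SE 0.18, adjusted p = 6.25e-08); in an exact two-sided permutation test of the 6 values p = 0.1, the smallest that 20 splits can give. Each of the 32 small subunit and 47 large subunit protein genes was called lower, with medians of −1.14 and −1.17, and with equal library totals 30 and 45 of them were. RPS28 fell furthest of the 79, ahead of RPL23A (−2.30), RPS25 (−2.19) and RPLP0 (−1.86), a protein of the stalk that recruits elongation factors, and changes were small for RPL36 (−0.34) and RPS19 (−0.42). RPL23A went from 16454, 15354 and 16377 to 3958, 2824 and 3112, with groups well apart. Ribosomal protein genes have many processed pseudogenes, so that single values among them are uncertain, and their summed share of a library was 2.73–3.10% in siNT and 1.42–1.81% with hsa-miR-708-5p.

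Other transcripts with a 5′ terminal oligopyrimidine (TOP) tract, the element through which mTORC1 controls translation of this class, moved with them. Of 19 such genes that encode no ribosomal protein, 18 fell and 1, the small nucleolar RNA host SNHG1, rose (0.68; list median −1.07). PABPC1, the main poly(A)-binding protein, went from 41268, 38566 and 45377 to 12220.4, 9700.4 and 11899.7 (−1.89, SE 0.15, adjusted p = 3.09e-06). The elongation factors EEF1A1 and EEF1G fell (−1.72 and −1.70) and so did the initiation factor EIF4B (−1.51).

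Factors that build ribosomes did not move with the proteins of the ribosome. Of 62 ribosome biogenesis factors 32 rose, 6 fell and 24 were not called (median 0.31); the helicase DDX52, the GTPase EFL1 and WDR75 of the small subunit processome rose by 1.08, 0.95 and 0.71. The 6 that fell were RRS1 (−0.59), NPM1 (−0.53), NCL (−0.40), TBL3 (−0.36), NOLC1 (−0.32) and IMP3 (−0.28), of which NPM1 and NCL encode abundant nucleolar proteins; with equal library totals 52 rose and 0 fell. In the RNA polymerase I machinery 5 of 15 rose, namely TAF1A (1.55), POLR1C (1.32), POLR1B (0.94), TWISTNB (0.72) and TTF1 (0.33), and 3 fell, UBTF (−0.41), POLR1D (−0.42) and ZNRD1 (−0.52), none of which stayed lower with equal totals. Mitochondrial ribosomal proteins divided into 26 higher and 19 lower of 81, among them MRPS18C (1.07) and MRPL37 (−0.89), with a median of 0.056, and with equal totals into 43 and 8. Cytosolic aminoacyl-tRNA synthetases, which charge tRNAs, gave 5 higher and 6 lower of 20, or 10 and 4 with equal totals: QARS1 went from 3693, 3789 and 3493 to 1622, 1635 and 1411 (−1.24), and WARS1, also an interferon target, from 2807, 3030.2 and 2679.6 to 4713, 7310.4 and 7601 (1.17, adjusted p = 0.0331), a call that was lost when any siNT replicate, or hsa-miR-708-5p replicate 2 or 3, was left out (adjusted p 0.0617–0.0964). KARS1, NARS1, TARS1 and SARS1 rose by 0.27–0.63. Over all genes tested 30.9% were called higher and 31.2% lower. The shares were 33.3% and 20% in the polymerase I machinery, 32.1% and 23.5% for mitochondrial ribosomal proteins, and 25% and 30% for synthetases. Higher calls in these lists were thus about as frequent as among all genes.

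Genes of DNA replication and mitosis rose. Of 48 replication and S phase genes 39 were called higher and 1 lower (median 1.20), and of 48 mitotic and G2/M genes 43 were higher and 0 lower (median 1.09). CDT1, which licenses replication origins, had 138, 73.0 and 93.9 in siNT and 475, 419 and 598 with hsa-miR-708-5p (2.31, SE 0.26, adjusted p = 2.64e-05). The origin subunit ORC6, the polymerase epsilon subunit POLE2 and the primase PRIM1 rose by 2.20, 2.05 and 2.01, and the one that fell was POLD2 (−0.89), a polymerase delta subunit. In mitosis, CDK1, the kinase that drives entry, went from 655, 452 and 627 to 2362, 1963 and 2407 (1.97), and the checkpoint kinase TTK from 496, 338 and 451 to 1746, 1415 and 1841 (1.97); in both, every hsa-miR-708-5p library lay at least 2-fold above every siNT library. CDC25C, which activates CDK1, and the kinesin KIF2C rose by 2.06 and 2.03, and the 5 mitotic genes not called were MAD2L1, KIF20A, FOXM1, CDCA3 and CDC20 (0.12–0.32).

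Among 22 genes of the G1 machinery 9 (40.9%) rose and 6 (27.3%) fell, against 30.9% and 31.2% of all genes tested. The largest change was that of CDKN2B (p15), an inhibitor of CDK4 and CDK6, at 5693, 8088 and 4945 in siNT and 969, 1371 and 743 with hsa-miR-708-5p (a log2 fold change of −2.62, adjusted p = 6.68e-06). CDKN1A (p21), the inhibitor that p53 induces, went from 5698, 6211 and 6336 to 3112, 3470.0 and 2993 (−0.93, SE 0.10, adjusted p = 2.23e-05), and the cyclins CCNE1 and CCND3 fell (−1.62 and −1.09). RBL1 (p107) rose by 1.49, and CDK2, CDK4 and CDK6 by 0.63, 0.66 and 0.48. MYC, the growth transcription factor, had overlapping groups, 1433, 1096 and 1197 in siNT and 1439, 826 and 1281 with hsa-miR-708-5p, and was not called: its log2 fold change was −0.10 (adjusted p = 0.648) and turned to 0.22 with equal library totals, and to 0.0061 and 0.14 without siNT replicate 1 or hsa-miR-708-5p replicate 2.

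Targets of p53 rose although CDKN1A did not. Of 29 p53 targets 19 were called higher and 4 lower (median 0.79). FAS, a death receptor, went from 2124, 1987 and 2574 to 7295, 7057 and 7382 (1.71), and SESN2, TNFRSF10A and MDM2, the ligase that degrades p53, rose by 1.79, 1.56 and 1.40. The 4 that fell were CDKN1A, ZMAT3 (−1.49), TP53I3 (−1.22) and PLK2 (−0.83). The BCL2 family, which sets the threshold for apoptosis, was divided, with 8 of 17 (47.1%) higher and 6 (35.3%) lower (8 and 5 with equal library totals). Over all genes tested the shares were 30.9% and 31.2%. The BH3-only genes HRK and PMAIP1 (NOXA) rose by 3.21 and 2.54, MCL1 and BCL2, both protective, by 1.06 and 0.73, and BOK, BAD and BMF fell (−1.75, −1.49 and −1.22). HRK counts were 12.9, 14.2 and 10.3 in siNT and 112, 108 and 151 with hsa-miR-708-5p, a low level in both groups that did not overlap.

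Matrix and adhesion genes changed in sets of opposite direction. CEMIP, which depolymerises hyaluronan, fell furthest of all genes tested, from 56704, 60063 and 68399.6 to 171, 176 and 146 (−8.54, SE 0.30, adjusted p = 2.93e-08). Of 29 collagen chains 16 fell and 5 rose (median −0.68): COL4A4, a basement membrane chain, went from 27709, 37833 and 25189 to 1327, 1536 and 1139 (−4.49), and its partner COL4A3 (−4.36) and the fibrillar COL1A1 (−3.86) fell too. The 5 that rose were COL17A1 (3.97) and COL13A1 (2.78), both transmembrane collagens, and COL14A1 (0.89), COL18A1 (0.73) and COL16A1 (0.48). LAMA3 and LAMB3, chains of the laminin that anchors epithelia through hemidesmosomes, rose: LAMA3 went from 16.4, 14.2 and 11.7 to 530.4, 750.5 and 604 (5.38) and LAMB3 rose by 1.97, as did LAMA2 (2.07) and NID1 (0.38), whereas NID2, HSPG2, LAMC1, LAMA5 and LAMA4 fell (−2.30 to −0.59); with equal library totals 6 of the 13 genes of this list rose and 3 fell.

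Integrin subunits, the receptors that bind this matrix, fell in 12 of 18 cases and rose in 4 (median −1.19). ITGAV, the partner of several beta chains for vitronectin and latent TGF-beta, went from 40018, 52879 and 37192 to 10426, 8244 and 9181 (−2.21). ITGA11, a collagen receptor chain, and ITGB3 fell (−1.89 and −1.80). The collagen receptor ITGA2 rose from 977, 1036 and 1579 to 10965, 13574 and 10862 (3.33), and ITGB6, ITGA6 and ITGA3 by 1.46, 1.35 and 0.35, so that ITGA6, a laminin receptor chain of epithelia, moved with LAMA3 and LAMB3. Matrix proteases and their inhibitors were evenly divided, 10 higher and 10 lower of 25 (40% each), against 30.9% and 31.2% of all genes tested. ADAMTS1 (2.91) and ADAMTS5 (2.23) stood at one end and ADAMTS10 (−2.48) and MMP24 (−2.34) at the other. The plasminogen activators PLAU and PLAT and the receptor PLAUR rose by 1.11–1.73.

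Actin and contractile genes, many of them induced by SRF with its actin-sensing cofactor MRTFA, had the lowest median of the lists with over 10 members tested. Of 30 tested 28 were called lower and 0 higher (median −1.61), and the remaining pair were CNN1 (−0.32, adjusted p = 0.639) and CNN3 (−0.12, adjusted p = 0.332). ACTA2, smooth muscle actin, had 47528, 59612 and 17973 in siNT and 2307, 2117 and 1964 with hsa-miR-708-5p (−4.12, SE 0.34, adjusted p = 3.87e-06); siNT replicate 3 was the lowest of its group and still above all hsa-miR-708-5p libraries. TAGLN, an actin-bundling protein, went from 68824, 86964 and 51701 to 8839, 5139 and 6939.6 (−3.31), and the non-muscle actins ACTB and ACTG1, which most cells express at high levels, fell (−1.80 and −2.12). SRF itself (−1.67) and MRTFA (−0.85) fell. Markers of fibroblasts moved the same way: 7 of 9 tested fell and 0 rose, their summed level went from 51848–102877 in siNT to 12898–17493 with hsa-miR-708-5p, TCF21 was not listed, and the part of this in the collagen and contractile results was not tested. LMOD1 and ACTG2 fell (−3.41 and −4.36).

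TGF-beta is the growth factor that induces many of these genes. Of 24 of its ligands, carriers, receptors and targets, 14 fell and 2 rose, with a median of −0.50. LRRC32 (GARP), which holds latent TGF-beta at the cell surface, went from 1096, 2239 and 791 to 5.49, 12.4 and 5.11 (−7.27), and the ligand TGFB2 from 41012, 48376 and 48642 to 10706, 9502 and 9903 (−2.19). TGFB1 fell (−0.94), as did the receptor TGFBR1 (−0.68), SMAD4 (−0.39) and the decoy receptor BAMBI (−1.80); the co-receptor TGFBR3 (2.71) and the ligand TGFB3 (1.24) rose. With equal library totals 8 fell and 5 rose. Among 20 targets of YAP and TEAD, the effectors of the Hippo pathway, 12 fell and 1, FJX1 (0.99), rose: CRIM1 went from 42659.5, 48609.5 and 46054 to 10346, 8916 and 11589 (−2.16), ANKRD1 and CCN2 fell (−1.49 and −0.62), and YAP1 itself was not called (0.14, adjusted p = 0.206); with equal library totals 9 fell and 5 rose. Of 7 caveolins and cavins, which coat caveolae, EHD2 (−2.41), CAVIN1 (−2.06) and CAV2 (−0.41) fell and CAVIN2 (2.48) rose, against 2 and 2 with equal library totals; the call for CAV2, adjusted p = 0.0443, was lost there and when any of the 6 libraries was left out.

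Enzymes of lipid and sugar metabolism had more called members lower than higher, a balance that depended on the scaling. SCD, the stearoyl-CoA desaturase, went from 74218, 75817 and 81602 to 17205, 15707 and 13106 (−2.34, SE 0.14, adjusted p = 4.67e-07). Of 16 genes of fatty acid synthesis 11 fell and 2, ELOVL6 (0.41) and ACSL4 (0.43), rose (median −0.36), against 6 and 4 (median −0.040) with equal library totals; ACACA, the first committed enzyme, fell (−1.16). Of 25 cholesterol genes 12 fell, led by the regulators SREBF1 (−1.54) and SREBF2 (−0.98), and 5 rose, among them SC5D (0.97), CYP51A1 (0.41), INSIG1 (0.37) and HSD17B7 (0.36), a split that turned to 11 higher and 7 lower with equal library totals. In glycolysis 11 of 23 fell and 2 rose: the glucose transporter SLC2A1 went from 22282, 22161 and 20914 to 7026, 7021 and 6646 (−1.66), PFKL and TPI1 fell (−1.34 and −1.19), and HK2 (1.55) and SLC2A3 (0.59) rose, while with equal totals 5 fell and 5 rose.

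Nuclear genes of the respiratory chain and ATP synthase were lower in 46 of 76 cases and higher in 2, CYC1 (0.44) and NDUFA9 (0.55), by a median of −0.33. ATP5MC2, a subunit of the ATP synthase ring, went from 1659, 1726 and 1683 to 541, 458 and 522 (−1.74) and led the list ahead of UQCR11 (−1.28). With equal library totals the list divided evenly, 15 lower and 14 higher. In purine synthesis 6 of 15 (40%) fell and 2 (13.3%), PRPS2 (0.73) and PPAT (0.56), rose, against 31.2% and 30.9% of all genes tested. With equal totals 3 fell and 4 rose. IMPDH1, an isoform of the enzyme that commits to guanine nucleotides, went from 1248, 1279 and 1083 to 63.6, 46.6 and 39.1 (−4.59, adjusted p = 8.01e-08), while IMPDH2, the main isoform of proliferating cells, fell (−0.63). Serine and one-carbon enzymes rose in 9 of 19 cases (14 with equal totals), with GLDC (2.75), CTH (1.51), PSAT1 (1.06) and PHGDH (0.50) among them, and ALDH1L2, AHCY and MTR fell (−0.89, −0.78 and −0.32).

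Stress programmes did not move as one. The integrated stress response slows translation and induces ATF4 and its targets. Of 23 of its genes 14 rose and 3 fell (median 0.50): DDIT3 (CHOP) went from 194, 162 and 199.6 to 1534, 1759 and 1461 (3.09, SE 0.23, adjusted p = 2.07e-06), ATF3 rose by 3.03 and the cystine transporter SLC7A11 by 2.06, whereas the amino acid transporters SLC7A5 and SLC7A1 and the lipoprotein receptor VLDLR fell (−1.92, −0.77 and −0.62). Chaperones of the endoplasmic reticulum, which the unfolded protein response induces, went down, with 17 of 25 lower and 1, EDEM2 (0.31), higher (median −0.57), or 10 and 2 (median −0.25) with equal library totals. HYOU1 went from 13692, 15439 and 14196 to 3787, 3791 and 4003 (−1.90), MANF and CRELD2 fell (−1.93 and −1.44), and HSPA5 (BiP), the main chaperone of the compartment, fell as well (−0.73). NRF2 targets, which detoxify and supply reducing power, gave 6 higher and 12 lower of 23 with a median of −0.29, or 7 and 9 with a median of 0.029 with equal totals: the pentose phosphate enzymes TKT and PGD fell (−1.68 and −1.40), and the glutathione genes GCLM and GCLC rose by 1.09 and 0.49. All 4 metallothioneins that passed the filter were called lower (−2.69 to −0.73), with the limit that they are close paralogs.

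Immediate early genes and the phosphatases and inhibitors that restrain ERK gave 14 higher and 7 lower of 29. KLF4, a transcription factor of epithelial differentiation, went from 6.04, 3.04 and 10.3 to 423, 523 and 722 (6.31, with 1 siNT library at 3 reads), and DUSP6, a phosphatase of ERK and a readout of its activity, from 181, 193 and 247 to 1376, 1667 and 1199 (2.77). FOSL1, DUSP5 and SPRY4 rose by 1.69, 1.68 and 1.38, and EGR2, EGR3 and IER3 fell (−2.88, −1.67 and −1.32). Constitutive proteasome subunits rose in 14 of 34 cases and fell in 6, but those that fell included PSMB2, from 3441, 3407 and 3498 to 844, 929 and 894 (−1.96), and PSMA5 (−1.63), while the 14 that rose did so by 0.19–0.75; with equal totals 26 rose and 3 fell. Lysosomal genes were divided, 18 higher (39.1%) and 12 lower (26.1%) of 46, near the 30.9% and 31.2% of all genes tested. CTSL (1.96), a protease, and NPC1 (1.68), which exports cholesterol, stood on one side. PSAP (−1.54), the precursor of the saposins, and ARSB (−1.53) stood on the other. Of 44 genes of the primary cilium 27 fell and 5 rose (median −0.46); BBS1, RPGRIP1L and the intraflagellar transport genes IFT22 and IFT140 fell (−1.34, −1.21, −1.17 and −1.16), MKKS, TTC21B, CEP290, IFT74 and WDR19 rose by 0.45–0.87, and with equal library totals 14 fell and 13 rose. In the microRNA pathway AGO1 went from 2537, 2434 and 2374 to 752, 794 and 807 (−1.64, adjusted p = 1.17e-07) and PRKRA fell (−0.45), TNRC6C, CNOT1, AGO4, AGO3 and TNRC6A rose by 0.29–0.88, and AGO2, DICER1 and DROSHA were not called.

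Families named by their symbols were counted as well. Of 513 genes named ZNF or ZFP, most of them zinc finger transcription factors, 214 (41.7%) rose and 89 (17.3%) fell, with a median of 0.22. Cadherins and protocadherins, which join cells, went down in 30 of 65 cases and up in 8 (median −0.47; 26 and 15 with equal totals), and keratins down in 8 of 10 (median −1.91), KRT8 from 15170.4, 15598 and 14031 to 2033, 2117 and 2125 (−2.83). PARP genes, several of them interferon targets, rose in 8 of 11 cases and fell in 0, and kinesins rose in 17 of 32 and fell in 8. Of 243 solute carriers 70 (28.8%) rose and 87 (35.8%) fell (median −0.12), near the 30.9% and 31.2% of all genes tested. With equal library totals the split turned to 99 and 58. The 12761 protein-coding genes were called higher in 4078 and lower in 4190 cases, a split that turned to 6145 and 2452 with equal totals, and 704 lncRNAs in 170 and 152, or 243 and 95. With the protein-coding genes split into 5 equal groups by transcript length, the shortest, with a median of 1523 bases, were called lower in 34.9% and higher in 27.1% of cases, and the longest, with a median of 8008 bases, in 32.1% and 34.4%; with equal totals both groups were higher more often than lower.

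**Figure D3:**
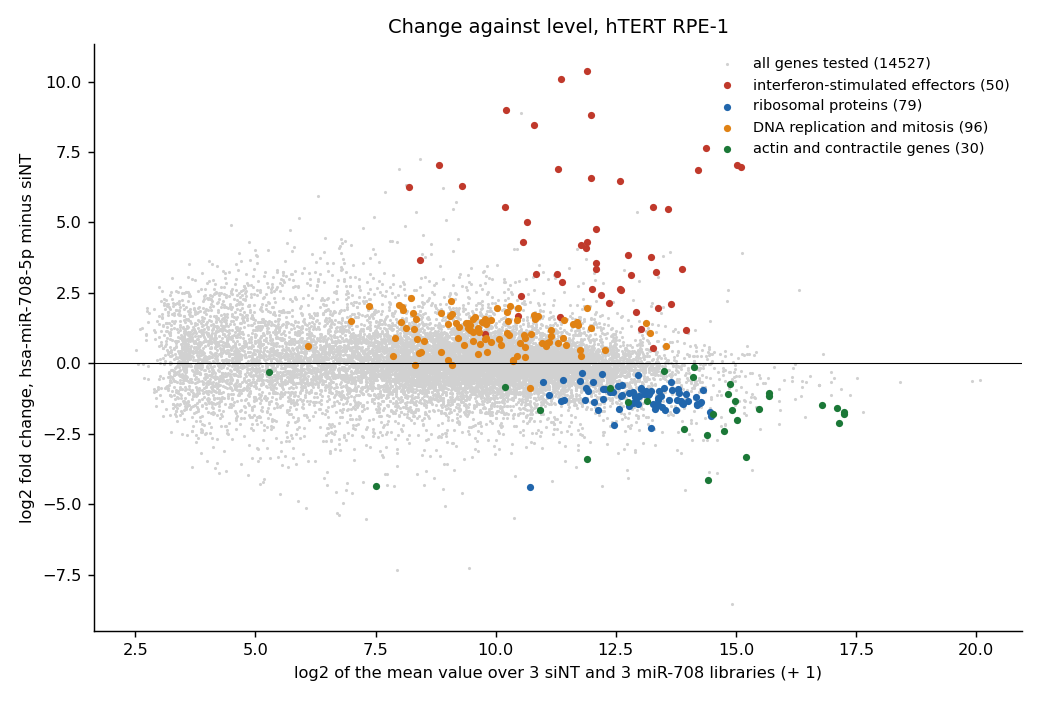
Log2 fold change in hTERT RPE-1, hsa-miR-708-5p minus siNT (vertical axis), against the log2 of the mean normalised read count over the 6 libraries (horizontal axis) for 14527 genes (grey), with 50 interferon-stimulated effectors (red), 79 ribosomal protein genes (blue), 96 genes of DNA replication and mitosis (orange) and 30 actin and contractile genes (green). The blue points lie below 0 and, except for RPS28 at −4.40, between −2.30 and −0.34, and all red points lie above 0.

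Transcripts with a match to the seed fell more often than those without. For 12725 of the genes tested a 3′ UTR was found, and it was searched on the transcript strand for AGCTCCTA (8mer), AGCTCCT (7mer-m8), GCTCCTA (7mer-A1) and GCTCCT (6mer), each gene counted once under its best match. Of 348 genes with an 8mer, 2.73% of those searched, 175 (50.3%) were called lower and 67 (19.3%) higher, with a median log2 fold change of −0.35. Of 1805 genes with a 7mer-m8 810 (44.9%) were lower and the median was −0.24, and for the 447 with a 7mer-A1 and the 2295 with a 6mer the medians were −0.12 and −0.11. Among the 7830 genes without a match 2115 (27%) were lower and 2837 (36.2%) higher, with a median of 0.094. Of all 12725 genes searched 32.9% were called lower and 32% higher. The median fell from 0.045 with 0 sites of 7 or 8 letters to −0.18 with 1 and −0.47 with 2, and was −0.38 with 3 or more. The median of genes with an 8mer minus that of genes without a match was −0.44, and −0.44 also with equal library totals, where each class moves up with the median of all genes.

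3′ UTR length moved with the class of match, from a median of 1079 bases without a match to 3306.5 with an 8mer. Among 3′ UTRs of 500–2000 bases the medians were −0.40 for 80 genes with an 8mer and 0.11 for 3568 without a match. Of the 12 genes that fell most, CEMIP and IMPDH1 hold 2 sites of 7 letters each and ITIH3 holds 1. Other called genes with an 8mer include AGO1, CDKN2B, EEF1A1, the degradation factor EDEM1 and PSAP, and CDKN1A and TAGLN hold 2 sites of 7 letters each. RPS28 has no match longer than the 2 sites of 6 letters printed above and yet its log2 fold change of −4.40 ranks 19 from the lowest of all genes. A match is a description of letters and does not show that the microRNA acts there.

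**Figure D4:**
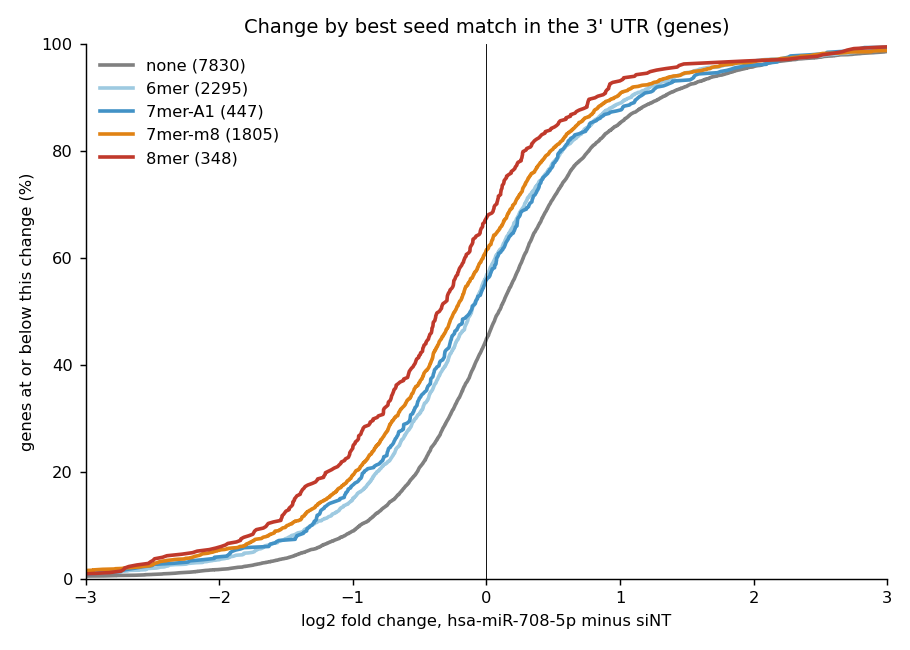
Cumulative share of genes (vertical axis, in percent) at or below a log2 fold change of hsa-miR-708-5p against siNT (horizontal axis, drawn from −3 to 3), by the best seed match in the 3′ UTR. The curve of genes with an 8mer (348) lies furthest to the left, followed by 7mer-m8 (1805), while 7mer-A1 (447) and 6mer (2295) lie close together and genes without a match (7830) furthest to the right.

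The most alike treatment is hsa-miR-28-5p, which shares the seed and 16 of its 22 positions. Between the mimics, 3084 of 14527 genes (21.2%) were called, 1435 (9.88%) higher and 1649 (11.4%) lower with hsa-miR-708-5p. Genes of mitosis and replication differed between the mimics: 43 of 48 mitotic genes and 35 of 48 replication genes were higher with hsa-miR-708-5p. TTK was 565, 789.8 and 631 with hsa-miR-28-5p, a difference of 1.34 (SE 0.17, adjusted p = 0.00101) on the log2 scale, and for CDK1, at 957, 1258 and 1029.8, the difference was 1.06. For TTK the hsa-miR-28-5p libraries lay above siNT and under hsa-miR-708-5p, with no overlap between the 3 groups.

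Contractile, collagen and TGF-beta genes were lower with hsa-miR-708-5p than with hsa-miR-28-5p in 22 of 30, 12 of 29 and 13 of 24 cases; with equal library totals 8 of the TGF-beta genes were called. ACTA2 was 14876, 11286 and 11912 with hsa-miR-28-5p (−2.57, adjusted p = 0.00125), TAGLN was 39374, 30521 and 46314 (−2.49) and COL4A4 was 8818, 8171 and 9306 (−2.72), each between the other groups. The largest called differences among genes with a mean of at least 100 were those of CEMIP (−4.10), LRRC32 (−3.72), the non-coding RNA LINC00520 (3.25), SYT12, a synaptotagmin (−3.22), and the secreted protein CRISPLD2 (−3.09). CDKN1A was 5895, 4753 and 5701 with hsa-miR-28-5p and lower with hsa-miR-708-5p (−0.77, adjusted p = 0.00119), and 9 of 29 p53 targets differed, each of them lower with hsa-miR-708-5p, and 5 without hsa-miR-28-5p replicate 1. RPS28 was 132, 184 and 123 with hsa-miR-28-5p, overlapping the hsa-miR-708-5p libraries, and its difference was 0.069 (SE 0.18, adjusted p = 0.816).

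None of the 50 interferon-stimulated effectors and none of the 32 small subunit proteins was called between the mimics, and 5 of 47 large subunit proteins were, lower with hsa-miR-708-5p. Of all genes tested 21.2% were called between the mimics and 11.4% were lower with hsa-miR-708-5p. The numbers of replicates pair these libraries, and with the replicate as a block 13 small and 25 large subunit proteins were called. hsa-miR-28-5p replicate 1, with its larger share of rRNA, was also the lowest of its group for 2 of the interferon-stimulated genes: IFIT1 was 5557, 74143 and 45957 and PSMB9 127, 1216 and 757 in replicates 1, 2 and 3, and the part of the rRNA share in this was not tested. Without that library 2090 genes were called in place of 3084, of them 24 of 48 replication, 40 of 48 mitotic, 22 of 30 contractile and 1 of 47 large subunit protein genes. Leaving out hsa-miR-708-5p replicate 1 or 3 or hsa-miR-28-5p replicate 3 left 1894, 1509 and 1650 calls.

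The response of hTERT RPE-1 differed from that of MCF10A for many genes. Of 13339 genes tested in both lines, 5311 (39.8%) had a called difference between their log2 fold changes, 2700 (20.2%) with a higher and 2611 (19.6%) with a lower value in hTERT RPE-1, and the median difference was −0.021. Replication and mitotic genes stood higher in hTERT RPE-1, in 44 and 38 of 48 cases. Their medians in MCF10A were −0.26 and 0.087, against 1.20 and 1.09 here, and CDT1 and TTK changed by −0.21 and −0.14 there with differences of 2.52 and 2.11 (adjusted p = 5.86e-06 and 6.22e-07). Actin and contractile genes were lower in hTERT RPE-1 in 23 of 26 cases tested in both, with a median of −0.067 in MCF10A.

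Ribosomal proteins had medians of −0.57 (small subunit) and −0.55 (large subunit) in MCF10A, and the change was lower in hTERT RPE-1 by a called difference for 23 of 32 and 28 of 47 genes. RPS28 changed by −2.65 in MCF10A, a difference of −1.74 (SE 0.24, adjusted p = 1.12e-05). Genes of the integrated stress response were higher in hTERT RPE-1 in 16 of 23 cases, and their median was −0.81 in MCF10A. Of the interferon-stimulated effectors 18 of 50 differed, 17 of them higher in hTERT RPE-1. Among all genes tested in both lines 39.8% differed, with 20.2% higher and 19.6% lower in hTERT RPE-1. Differences counted in either direction were thus not more frequent in this list than among all genes. Their direction was less even, since 17 of the 18 were higher in hTERT RPE-1. The list median was 3.81 in hTERT RPE-1 and 2.49 in MCF10A. The 5 largest called differences among genes with a mean of at least 100 were those of OAS1 (7.72), CEACAM1, an adhesion molecule (7.42), VSTM2L (−6.21), the cell surface proteoglycan SDC2 (−6.21) and CEMIP (−6.03). The changes of OAS1 and CEACAM1 in hTERT RPE-1 and of SDC2 in MCF10A start from low siNT values. The tables of the lines were scaled apart, so that changes and not levels were compared, and the lines also differ in tissue of origin, which cannot be told apart from other differences between the experiments.

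**Figure D5:**
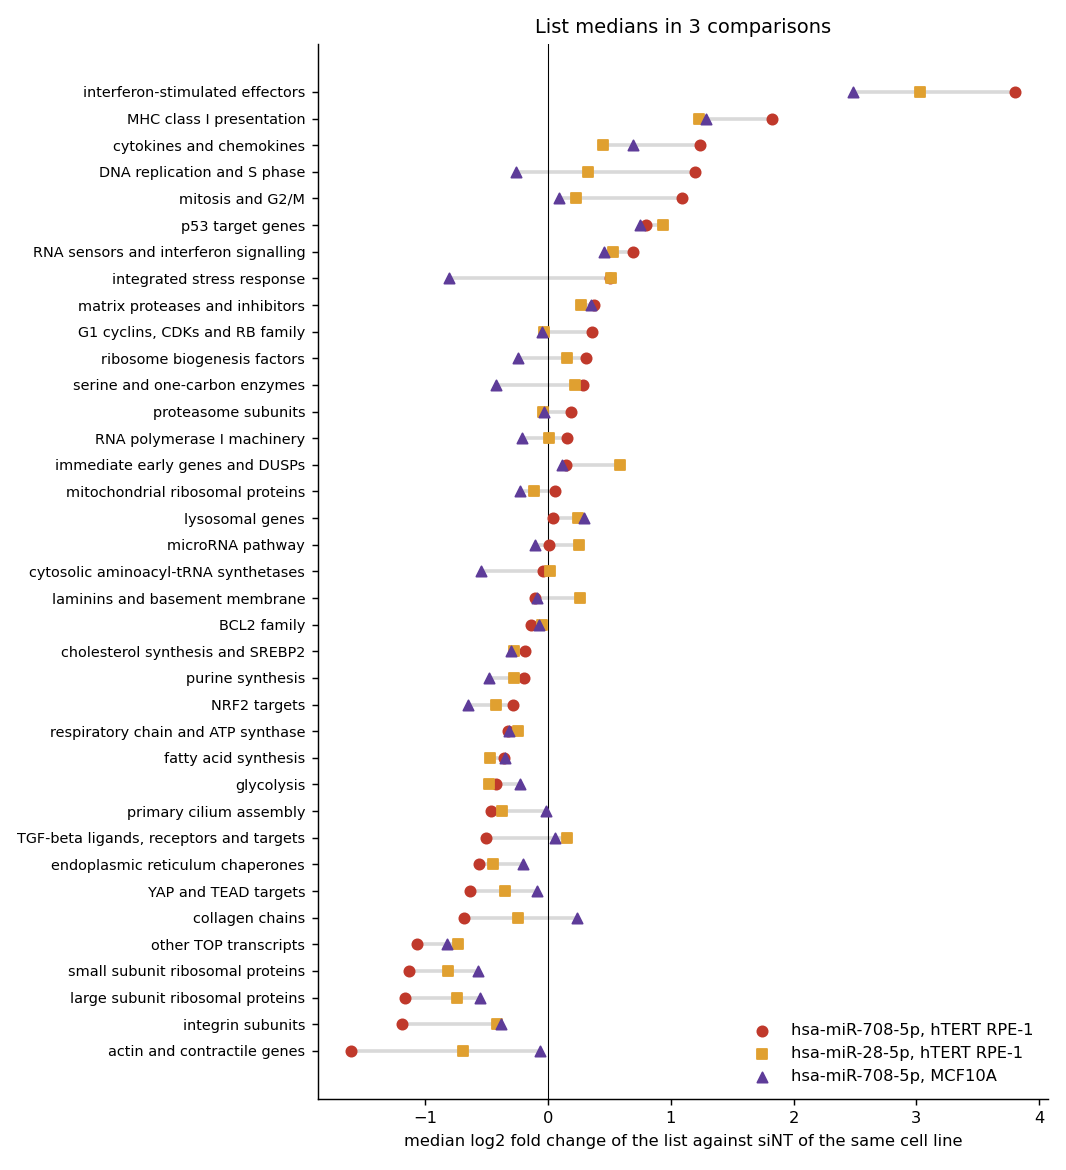
Median log2 fold change against siNT of the same line for hTERT RPE-1 given hsa-miR-708-5p (red circles) or hsa-miR-28-5p (orange squares) and MCF10A given hsa-miR-708-5p (purple triangles). The gene lists are shown without those of cell markers, metallothioneins, and caveolins and cavins, of which few genes were tested in MCF10A. Both sets of hTERT RPE-1 values share their siNT libraries. Mitotic genes lie at 1.09, 0.23 and 0.087 and actin and contractile genes at −1.61, −0.69 and −0.067, whereas interferon-stimulated effectors are above 2 and ribosomal proteins below −0.5 in each.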

How the data were processed

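PolyA+ RNAseq (100 bp paired-end reads) was conducted by the study in biological triplicate, and 18 libraries in 2 tables of 1 line each were used. Per the study, adapters were trimmed, HISAT2 2.1.0 aligned reads to hg38 and counts were estimated on RefSeq Transcripts version 93 with the Partek E/M module, whose versions beyond these are not given in the sources used here. The expression signal the authors deposited is an estimated count divided by a size factor (median of ratios) for each library. Ratios, p-values and FDRs of the authors' own comparisons were not used. Between 77% and 81% of low values were whole multiples of a library's step, so whole reads were not recovered and no count test was run. Whether libraries kept the strand is not stated, so overlapping and antisense genes, and paralogs whose reads the estimation splits (ribosomal proteins, HLA, IFITM and MT genes), are uncertain. Depth was 23.8–40.4 M reads per hTERT RPE-1 library, and a floor of 3 reads covers counting error only, since no molecular identifiers are described.

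Values were transformed as log2(value + 1), genes reaching 10 in 3 or more of 9 libraries were kept (14527 of 15257 listed), and group means were fitted to the 9 libraries of the line with limma 3.58.1 in R 4.3.3, with a trend in the moderation and Benjamini-Hochberg adjustment over all genes tested. Fold changes understate the change of genes with low values. A gene low in siNT, such as OAS1, CEACAM1 or KLF4, passed the filter through libraries where it is high and could hardly be called lower. Differences between the lines were computed from both fits with Welch–Satterthwaite degrees of freedom. Same-numbered libraries deviated together between the mimics (r = 0.28, 0.20 and 0.13 across genes), so the numbers pair these groups by a check on the data and not by a stated batch. Seed matches were searched in the longest 3′ UTR of each gene in GENCODE 44. Scripts were tested on simulated data; other tools were matplotlib 3.10.9, numpy 2.4.6, pandas 2.3.3 and Python 3.11.15.

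The comparison and the 44 gene lists were chosen with earlier results of these data known. Named genes are the 12 called genes with the largest rise and the 12 with the largest fall (mean of at least 100 in the higher group, groups apart), up to 4 called members of each list with the largest change and members whose role defines the list, RPS28, MYC and CDKN1A, and the 5 with the largest difference from hsa-miR-28-5p and from MCF10A. TENM4, MDM2 and other members of the lists that complete a count or a family were chosen after their values were seen. Alternatives were another scaling (library totals, upper quartile), pseudocounts of 0.5 and 10, no filter and a filter of 50, no trend, the 6 libraries alone, a replicate block, a 2-fold minimum and leaving out each replicate; those without hsa-miR-28-5p replicate 1, with 3′ UTRs of 500–2000 bases and without interferon and ribosomal protein genes were added after the data were seen.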

Additional observations from a re-analysis of the deposited data

Results flagged for a closer look

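RPS28 and the 5 genes with the largest called difference between the log2 fold changes of hTERT RPE-1 and MCF10A are given here, each tested with limma fold changes and Welch–Satterthwaite degrees of freedom and adjusted over 13339 genes, and no explanation was tested. RPS28 went from 3589, 3960 and 4062 to 785, 554 and 532 in MCF10A (−2.65), a smaller fall than in hTERT RPE-1 (−4.40) by a difference of −1.74 (adjusted p = 1.12e-05). OAS1 rose from 668, 682 and 510 in siNT to 3232, 4794 and 3851 in MCF10A. In hTERT RPE-1 it rose from 10.4, 3.04 and 2.93 in siNT, where 2 libraries lay at or under 3 reads, and its changes differed by 7.72 (adjusted p = 4.1e-05). Since the lines were scaled apart, siNT values here and below give the start of each change and are not compared between lines. CEACAM1 rose by 1.45 in MCF10A and 8.87 in hTERT RPE-1, a difference of 7.42 (adjusted p = 2.21e-05), from 8.63, 3.04 and 4.40 in siNT of hTERT RPE-1, where 2 libraries lay at or under 3 reads, and 928, 404 and 314 in siNT of MCF10A. VSTM2L changed in opposite directions, 0.92 in MCF10A and −5.29 in hTERT RPE-1, where 1 hsa-miR-708-5p library lay at or under 3 reads, and the difference was −6.21 (adjusted p = 1.79e-07). SDC2, a heparan sulphate proteoglycan, rose from 1.20, 6.43 and 13.7 to 173, 379 and 409 in MCF10A and fell from 9222, 11935 and 10981 to 7095, 6575 and 7230.0 in hTERT RPE-1, so that its changes differed by −6.21 (adjusted p = 2.84e-05). Most of that difference is the change of 5.60 in MCF10A, which starts from low siNT values. The value of 3 reads was not computed for MCF10A. CEMIP fell in both lines, by 2.51 on the log2 scale from 145, 93.2 and 91.3 in MCF10A and further in hTERT RPE-1 (−8.54), a difference of −6.03 (adjusted p = 1.43e-08).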

How the results depend on the processing

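With equal library totals 6778 genes were called higher and 2660 lower with hsa-miR-708-5p, 4650 were called against hsa-miR-28-5p, and MYC turned to 0.22. MYC also turned without siNT replicate 1 (0.0061) or hsa-miR-708-5p replicate 2 (0.14), was −0.26 without hsa-miR-708-5p replicate 1, and was called under none of these. A 2-fold minimum left 1846 genes higher, 1704 lower and 700 against hsa-miR-28-5p. Leaving out each siNT or hsa-miR-708-5p replicate gave 3941–4337 genes higher and 3995–4358 lower, and leaving out each hsa-miR-708-5p or hsa-miR-28-5p replicate gave 1509–4083 genes against hsa-miR-28-5p. The median of genes with an 8mer minus that of genes without a match was −0.44, and went to −0.50 with the shortest 3′ UTR of each gene, −0.51 within 500–2000 bases, and −0.48 to −0.43 without single libraries. Among 2991 values of named genes under the alternatives 2971 kept their direction and side of the threshold, 17 lost the call (WARS1, CAV2, and MITF and OTX2 with equal totals) and 3 reversed, all MYC; the causes were not tested. RPS28 kept its call under every alternative run. The replicate block gave 4534 genes higher, 4567 lower and 3315 against hsa-miR-28-5p. Same-numbered siNT and hsa-miR-708-5p libraries had correlations of 0.042, 0.15 and 0.073, each the highest of its hsa-miR-708-5p library. These were weaker than between the mimics, so a pairing of siNT by replicate number is hinted at and not settled. The labels share the numbers but name no batch, and the main fit was unpaired. Without hsa-miR-28-5p replicate 1, added after the data were seen, 4579 were higher and 4652 lower. Genes under about 10 normalised read counts were not tested, and 3 libraries a group limit the precision.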

Other observations

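Values outside the comparisons concern single libraries and markers. PMEL, a melanosome protein of pigment cells, was 13.8, 9.12 and 544 in siNT replicates 1, 2 and 3, so that replicate 3 held nearly all of it, and 3.14, 10.5 and 8.51 with hsa-miR-708-5p, and it was not called (−2.50, adjusted p = 0.096). RLBP1, the retinaldehyde-binding protein of pigment epithelium, had 1.73, 4.05 and 1.47 in siNT and 12.6, 14.3 and 11.1 with hsa-miR-708-5p, with 2 siNT libraries at or under 3 reads, and it passed the filter on low values through the group where it is high, whereas MITF and OTX2, transcription factors of the lineage, fell from 1936, 1757 and 2031 to 1248, 1309.8 and 1315 and from 879, 983 and 991 to 646, 715 and 625 (−0.56 and −0.52), calls that were lost with equal library totals. KDR, a receptor for VEGF that marks endothelium, rose from 219, 257 and 349 to 996, 1239 and 865 (1.92), while the endothelial genes CDH5, PECAM1 and CLDN5 were not listed. The 50 most abundant genes took 23.1–27.2% of the values of siNT libraries and 18.2–19.1% with hsa-miR-708-5p. LINC00520, a long non-coding RNA, went from 3.45, 2.03 and 1.47 to 86.3, 141 and 122, with 2 siNT libraries at or under 3 reads.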
